A study of Bos taurus with 33 samples.

Results

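The nuclear genes of respiratory complex I were followed in bovine oocytes and in the cumulus cells (CC) that surround them. Members were all genes whose symbol starts with NDUF, joined between the oocyte and CC tables by Ensembl identifier. There were 46 of them among 17543 genes, and each was listed in both tables. They comprised 7 core subunits, 30 accessory subunits, NDUFA4 with its paralogue NDUFA4L2, and 7 assembly factors of the NDUFAF series. Pools came from suckled postpartum Hereford-Angus beef cows, and each pool held 4 oocytes or the CC of 4 cumulus-oocyte complexes (COC). Every cow received GnRH on day -9 and prostaglandin F2α on day -2. In the small classification (follicle up to 11.7 mm) and the large classification (12.7 mm or more) cows showed no estrus, and a further GnRH injection on day 0 triggered the gonadotropin surge. In the spontaneous classification (11.7 to 14.0 mm) cows showed estrus, had an endogenous surge and were not given that injection. Spontaneous pools therefore differed from small and large pools in estrus, in GnRH treatment and in the limits set on follicle diameter at the same time, and these cannot be told apart. COC were aspirated about 20 h after GnRH or estrus by one of the sample labels and about 23 h by another. Small, large and spontaneous follicles gave 6, 6 and 4 oocyte pools (16 in all) and 6, 6 and 5 CC pools (17 in all). By the study's methods the CC pools were taken from the COC that gave the oocyte pools, so the cell types share animals and are not separate sets of samples, and the labels do not tie single CC pools to single oocyte pools.

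Complex I, the NADH:ubiquinone oxidoreductase, takes electrons from NADH at the tip of an arm that reaches into the mitochondrial matrix, passes them along iron-sulphur clusters to ubiquinone, and pumps protons through an arm buried in the inner membrane. Core subunits do this work, accessory subunits brace both arms, and assembly factors help to build the enzyme and then leave it. The proton-pumping core is made from mitochondrial DNA (ND1 to ND6 and ND4L), so the enzyme needs transcripts of both genomes. The oocyte draws its ATP largely from oxidation of pyruvate that CC hand over after glycolysis.

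Values were CPM, read counts scaled to each library's total on genes. That total was 7664375 to 17934916 reads per oocyte pool and 1911600 to 5772431 per CC pool. A count of 0 allowed up to 0.167 to 0.391 CPM in oocytes and 0.520 to 1.57 CPM in CC, which is the worth of 3 reads and covers counting error only. A gene was retained with at least 5 CPM in 4 oocyte pools or in 5 CC pools. Of the 46 members 43 were retained in oocytes, 45 in CC and 42 in both. NDUFB10, NDUFS6 and NDUFA10 fell short in oocytes and NDUFAF2 in CC. All 13 oocyte markers, GDF9, BMP15 and ZP3 among them, reached 1 CPM in every oocyte pool, with summed levels of 7765 to 11499 CPM. In CC 7 of these markers were listed, and their summed level was at most 8.90 CPM. Of the 15 cumulus and granulosa markers 11 reached 1 CPM in every CC pool, with sums of 13507 to 33932 CPM. Their sums in oocyte pools were 803 to 4515 CPM. The highest of these sums were in small replicate 3 (4515 CPM) and large replicate 6 (4098 CPM), and whether the transcripts came from CC or from the oocytes themselves was not tested. In pooled material a lower number of cells of a type and less RNA per cell cannot be told apart.

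Most members had a lower CPM in oocytes than in CC. Medians over pools were higher in CC for 33 of the 42 members retained in both tables, and the median ratio of CC to oocyte was 2.47, against 0.893 over the 8083 genes retained in both. In 7 members every CC pool lay above every oocyte pool, where 12.7% of all such genes did so. In 0 of the 42 members did every oocyte pool lie above every CC pool, where 22.5% of all such genes did so. The tables were scaled separately, so these levels were set side by side without a test. Mitochondrially encoded genes took 0.846 to 5.0% of the reads in oocytes and 12.6 to 44.0% in CC. With CPM recomputed without those genes, 10 members lay higher in every CC pool and the median ratio was 2.94.

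**Figure D1:**
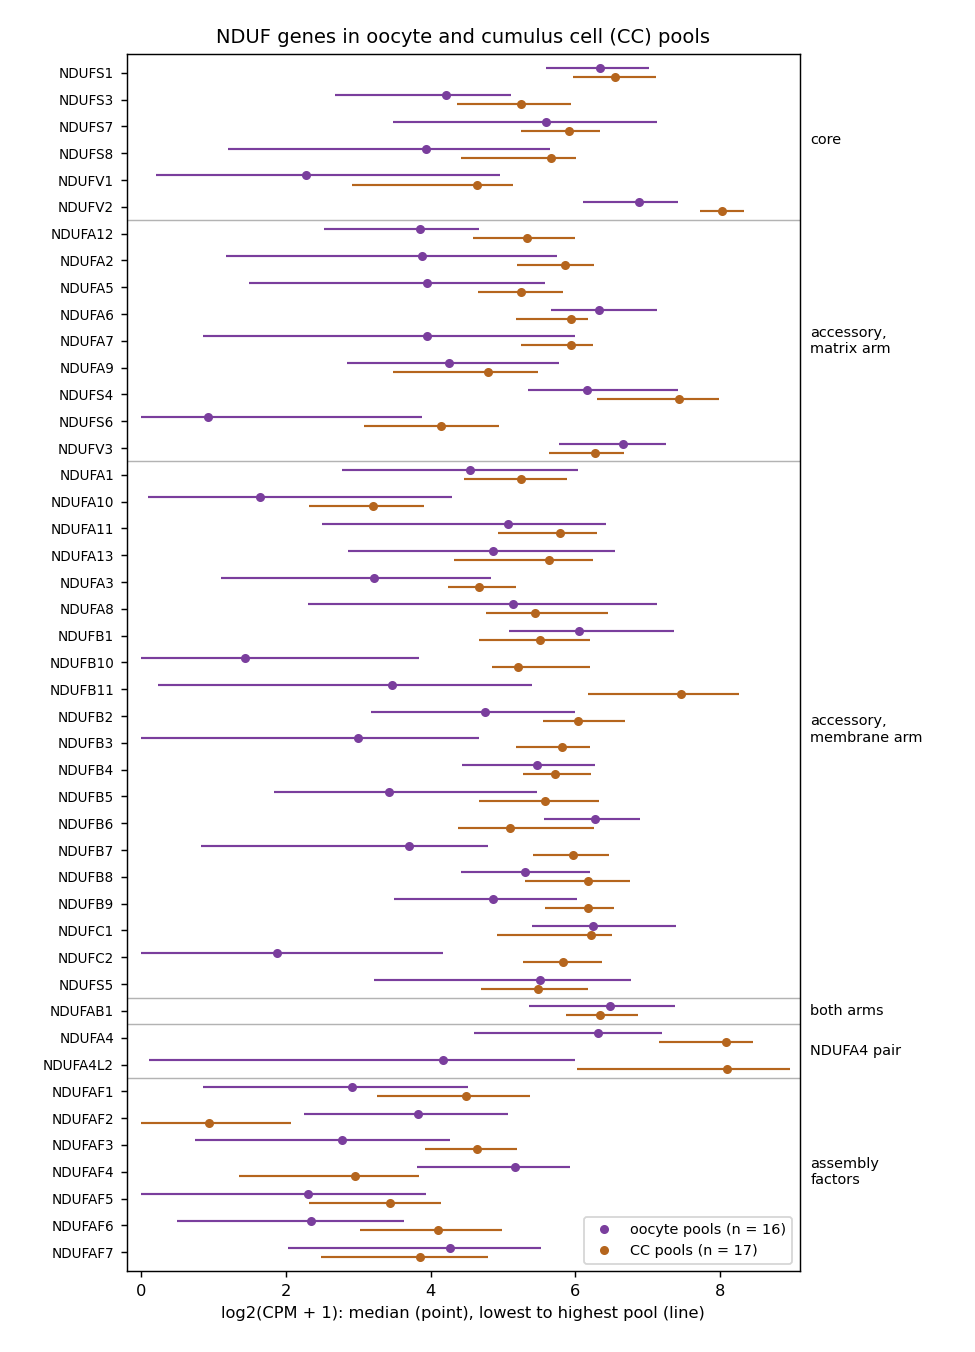
Level of 45 of the 46 NDUF genes as log2(CPM + 1), with the median (point) and the lowest to highest pool (line) of 16 oocyte and 17 CC pools, grouped by role. NDUFC2, NDUFB11, NDUFA4L2, NDUFB3, NDUFB7 and NDUFV2, retained in both tables, and NDUFB10, retained in CC, show CC lines that lie wholly to the right of the oocyte lines, while NDUFAF2 shows the reverse.

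Among the core subunits, the median was higher in CC for 7 of 7. NDUFV2, an iron-sulphur protein of the NADH-oxidising tip, had a median of 117 CPM in oocytes (67.8 to 171) and 260 CPM in CC (211 to 320), and the cell types did not overlap. NDUFV1, which holds the flavin that accepts electrons from NADH, had 3.85 CPM in oocytes (0.152 to 30.1) and 24.0 CPM in CC (6.55 to 34.4). NDUFS8 had 14.3 against 49.8 CPM and NDUFS3 17.6 against 37.1 CPM. Ranges of the cell types overlapped in these 3 genes. NDUFS7, which carries the last cluster before ubiquinone, had 47.5 against 59.1 CPM, and NDUFS1, which carries clusters of the matrix arm, 79.8 against 92.4 CPM. These last 2 were close in both cell types, so that the core was not lower in oocytes to the same degree throughout.

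Accessory subunits differed from each other in the same way. The smallest ratios of oocyte to CC among retained members were those of NDUFC2 (0.0479), NDUFB11 (0.0573) and NDUFA4L2 (0.0628). NDUFC2, a membrane-arm subunit, had a median of 2.67 CPM in oocytes (0 to 16.99) and 55.9 CPM in CC (37.7 to 81.8). NDUFB11, an X-linked membrane-arm subunit, had 10.01 CPM in oocytes (0.172 to 41.3) and 175 CPM in CC (71.2 to 307). Neither gene overlapped between cell types. NDUFB3 (6.97 against 55.2 CPM) and NDUFB7 (12.1 against 61.6 CPM), also of the membrane arm, did not overlap either. The membrane-arm subunit NDUFB10 was not retained in oocytes, with 1.71 CPM (0 to 13.3), and had 36.1 CPM in CC (27.8 to 72.4). NDUFS6 of the matrix arm was at 0.891 CPM in oocytes (0 to 13.7) and 16.7 CPM in CC (7.47 to 29.8), and NDUFA10 at 2.11 CPM (0.0708 to 18.6) and 8.19 CPM (3.98 to 14.0).

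The reverse order was seen in 9 members, and the ranges of the cell types overlapped in each. NDUFAF4, which helps to build the matrix arm, had the highest ratio of oocyte to CC (5.15), with 34.8 CPM in oocytes (13.1 to 59.8) and 6.76 CPM in CC (1.54 to 13.4). Oocyte small replicate 6, at 13.1 CPM, was the one oocyte pool that fell below the highest CC pool. The membrane-arm subunits NDUFB6 (ratio 2.30) and NDUFB1 (ratio 1.48) followed, with medians of 76.2 against 33.1 CPM and 65.6 against 44.5 CPM. NDUFAF7, NDUFA6, NDUFV3, NDUFAB1, NDUFC1 and NDUFS5 had ratios between 1.01 and 1.35. NDUFAB1 is the mitochondrial acyl carrier protein and sits in both arms. NDUFAF2, an assembly factor related to NDUFA12, was retained in oocytes alone. Its level was 3.76 to 32.5 CPM in oocytes (median 13.2) and 0 to 3.21 CPM in CC (median 0.923), and every oocyte pool lay above every CC pool. The other assembly factors stood higher in CC: NDUFAF3 (5.86 against 24.0 CPM), NDUFAF6 (4.11 against 16.3 CPM), NDUFAF1 (6.53 against 21.5 CPM) and NDUFAF5 (3.96 against 9.81 CPM).

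NDUFA4 and NDUFA4L2 were kept apart, since NDUFA4 is now known as a subunit of cytochrome c oxidase and NDUFA4L2 as its hypoxia-inducible paralogue. NDUFA4 had 78.7 CPM in oocytes (23.2 to 147) and 270 CPM in CC (142 to 351). NDUFA4L2 had 17.1 CPM in oocytes (0.0818 to 62.9) and 272 CPM in CC (64.4 to 499), so the lowest CC pool lay just above the highest oocyte pool. The highest NDUFA4L2 values among oocyte pools were 62.9 CPM in large replicate 6 and 60.9 CPM in small replicate 3, the pools with the highest CC marker sums; the part of CC transcripts in these values was not tested.

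Pools of the same classification differed more among oocytes than among CC. The coefficient of variation within classifications had a median of 58.5% over the 43 members retained in oocytes (21.0 to 124%) and 25.3% over the 45 retained in CC (13.9 to 44.0%). It was larger in oocytes for 40 of 42 members. Oocyte pools held more reads on genes, although the paper reports fewer sequenced reads per oocyte pool than per CC pool on average. The paper also estimated less RNA per oocyte pool than per CC pool before amplification. The same spread over all retained genes was not computed, and the cause was not tested. NDUFV2 varied least in both cell types, and NDUFV1 varied most in oocytes. After centring on classification means, the mean correlation between pairs of members over the 16 oocyte pools was 0.166, against 0.00415 between pairs of all retained genes. Membrane-arm accessory subunits gave 0.318, with 91.5% of pairs positive, matrix-arm accessory subunits 0.104, core subunits 0.0718 and NDUFAF genes 0.0621. In CC the mean was 0.184 over 17 pools against 0.0807 between all genes. These are descriptions, since all members of a pool share its library and depth.

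The question put to the classifications was whether transcripts of the oocyte and CC differ with follicle size and with a spontaneous or induced surge. Fold changes are on the log2(CPM + 1) scale, as the second classification minus the first. A member was called at a nominal p of 0.01 or less in limma's moderated test, and for comparisons of oocytes that include small pools also without small replicate 3. The paper set the same condition after that library stood out in differing transcripts of its enriched pathways, so the condition stems from these same data. No pool of another classification was left out for a call. No member reached an adjusted p under 0.05 in any of the 6 comparisons (limma, Benjamini-Hochberg over all retained genes), which 0% of retained genes reached in oocytes, 0% from small to large CC pools, 0.0309% between small and spontaneous CC pools and 0.0103% between large and spontaneous CC pools.

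Most nuclear complex I transcripts had a higher fitted level in spontaneous than in small oocyte pools, and few of the differences passed the test. Of 43 members 34 were higher in spontaneous pools, with a median log2 fold change of 0.39 against 0.05 over all 10076 retained genes, of which 55% were higher. Pools of the same classification differed in their median NDUF level by an SD of 0.41 on the same scale, about the size of that median. 2 members were called, NDUFA7 and NDUFA13, both higher in spontaneous pools (background: 0.526% of genes called in this direction, 0.774% in all). At a nominal p under 0.05 there were 7 higher and 0 lower members (background 2.91% and 1.6%). Core subunits were higher for 6 of 7 (median 0.39), with 0 called by limma, edgeR or DESeq2 and 0 under a nominal p of 0.05 by limma. Accessory subunits were higher for 21 of 27 (median 0.45). NDUFAF genes had a median of 0.09, with 5 of 7 higher. With edgeR and with DESeq2 the median over members was 0.20 instead of 0.39, and that over NDUFAF genes was -0.01.

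NDUFA7 (ENSBTAG00000046319), a matrix-arm subunit, had 5.35, 0.813, 23.1, 2.78, 14.7 and 13.7 CPM in small pools and 30.9, 19.9, 62.8 and 37.6 CPM in spontaneous pools. Only small replicate 3 exceeded the lowest spontaneous pool. The mean was 10.1 ± 8.55 CPM (SD, n = 6) in small and 37.8 ± 18.2 CPM (SD, n = 4) in spontaneous pools. The log2 fold change was 2.18 (SE 0.67, 95% interval 0.81 to 3.55, limma p = 0.00288, adjusted p = 0.896), and an exact two-sided permutation test gave p = 0.00952, where 0.00476 is the smallest p this design allows. Large pools held 2.12 to 44.3 CPM. The call was lost without spontaneous replicate 3 (log2 fold change 1.90), with edgeR (1.87) and when genes of low level were not filtered out (2.18).

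NDUFA13 (ENSBTAG00000007812), a membrane-arm subunit also known as the cell death regulator GRIM-19, had 7.95, 60.2, 55.8, 24.8, 8.72 and 15.8 CPM in small pools and 38.2, 92.6, 64.6 and 58.6 CPM in spontaneous pools. Small replicates 2 and 3 lay within the spontaneous range, and the other 4 small pools lay below it. The log2 fold change was 1.45 (SE 0.51, 95% interval 0.41 to 2.49, limma p = 0.00806, adjusted p = 0.987) and the exact permutation p was 0.0524. The call was lost without small replicate 1, 5 or 6 or spontaneous replicate 2, 3 or 4, and in both count tests, where the log2 fold change was 1.11.

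NDUFA5, another matrix-arm subunit, had the next smallest p and was not called. It measured 3.81, 19.6, 14.1, 14.9, 5.53 and 1.81 CPM in small pools against 32.5, 10.5, 46.8 and 31.9 CPM in spontaneous pools. Spontaneous replicate 2 fell among the small pools and the other 3 lay above them all. The log2 fold change was 1.68 (SE 0.65, limma p = 0.0145, adjusted p = 0.987, exact permutation p = 0.0238). The remaining members under a nominal p of 0.05 were NDUFA8 (1.61), NDUFB2 (1.07), NDUFA4 (0.66) and NDUFAB1 (0.61), given here as log2 fold changes.

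**Figure D2:**
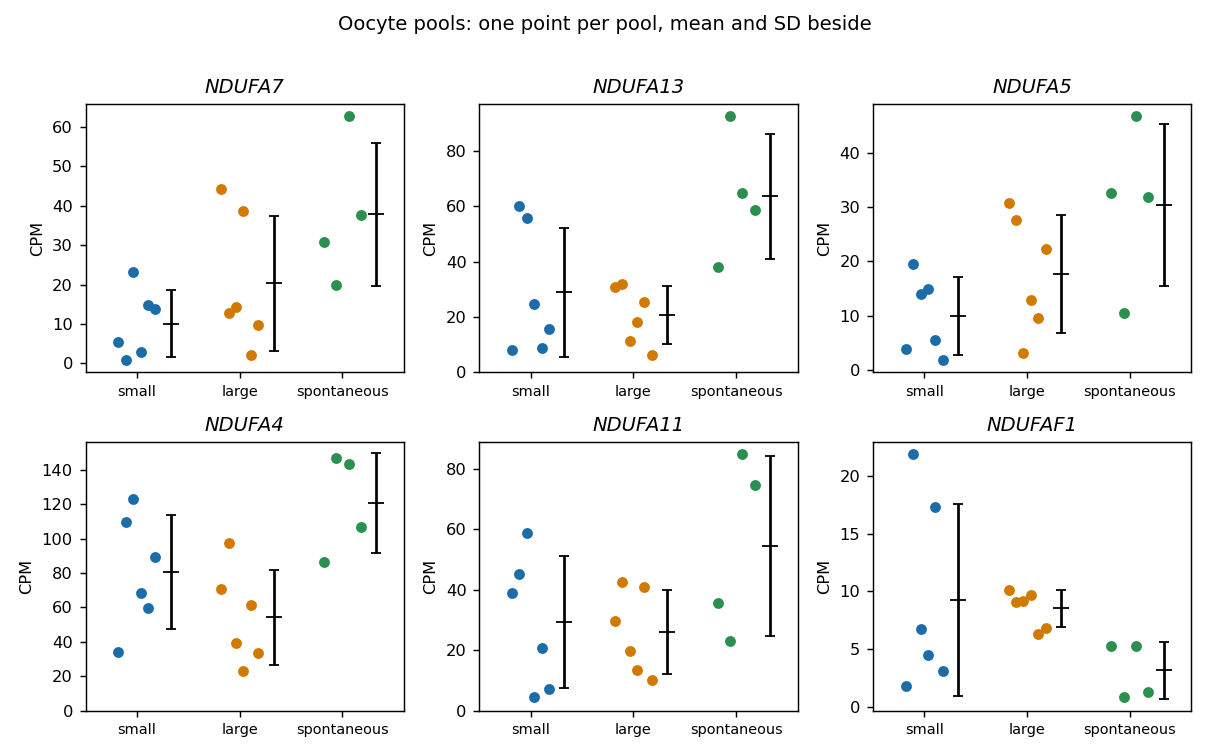
CPM of 6 NDUF genes in each oocyte pool by classification (small n = 6, large n = 6, spontaneous n = 4), with mean and SD beside the points. Spontaneous pools of NDUFA13 lie above all large pools, at 38.2 CPM or more against 31.8 CPM or less, and those of NDUFAF1 lie below them, at 5.31 CPM or less against 6.28 CPM or more.

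Most members also had a higher fitted level in spontaneous than in large oocyte pools. Of 43 members 37 were higher in spontaneous pools, with a median log2 fold change of 0.42 against 0.01 over all retained genes, of which 50.9% were higher. The SD of the median NDUF level between pools of the same classification was 0.32. Summed over all NDUF genes, spontaneous pools held 1541 to 2532 CPM and large pools 1035 to 1726 CPM, so the sums overlapped. NDUFA13 and NDUFA4 were called, both higher in spontaneous pools (background: 0.397% called in this direction, 0.943% in all). Core subunits were higher for 7 of 7, with a median of 0.70 and NDUFV1 and NDUFS3 at 1.03, although none was called. Accessory subunits were higher for 24 of 27 with a median of 0.42, and NDUFAF genes for 5 of 7 with a median of 0.23. Spontaneous pools enter this comparison and the preceding one, so the values are not independent of each other.

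NDUFA13 had 30.8, 31.8, 11.3, 18.0, 25.4 and 6.26 CPM in large pools, all below the lowest spontaneous pool of 38.2 CPM. Such a separation in this direction was seen in 0.417% of retained genes. The mean rose from 20.6 ± 10.5 (SD, n = 6) to 63.5 ± 22.5 CPM (SD, n = 4), a log2 fold change of 1.70 (SE 0.45, 95% interval 0.78 to 2.61, limma p = 0.000744, adjusted p = 0.847, exact permutation p = 0.00476). NDUFA4 (ENSBTAG00000011145) had 70.8, 97.2, 39.3, 23.2, 61.6 and 33.5 CPM in large pools and 86.6, 147, 143 and 107 CPM in spontaneous pools. Only large replicate 2 exceeded the lowest spontaneous pool. Its log2 fold change was 1.26 (SE 0.33, 95% interval 0.58 to 1.94, limma p = 0.000761, adjusted p = 0.847, exact permutation p = 0.0143). Both calls held without each pool in turn and in both count tests.

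NDUFA11, a membrane-arm subunit, came next by p and was not called. It measured 29.7, 42.4, 19.8, 13.3, 41.0 and 10.1 CPM in large pools against 35.5, 23.0, 84.7 and 74.5 CPM in spontaneous pools, so the groups overlapped (log2 fold change 1.03, SE 0.46, limma p = 0.0331, adjusted p = 0.968, exact permutation p = 0.0714). Without spontaneous replicate 2 it was called, with a log2 fold change of 1.37, and the number of called members was 5 instead of 2. NDUFAF1 (ENSBTAG00000010778), an assembly factor for the membrane arm, ran the other way and was picked out after its values were seen. It had 10.1, 9.07, 9.17, 9.70, 6.28 and 6.85 CPM in large pools and 5.25, 0.810, 5.31 and 1.28 CPM in spontaneous pools. Every large pool lay above every spontaneous pool, as in 0.496% of retained genes (log2 fold change -1.40, SE 0.65, limma p = 0.0393, adjusted p = 0.968, exact permutation p = 0.00476). Small pools of NDUFAF1 spanned 1.78 to 21.9 CPM and overlapped with both.

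Between small and large oocyte pools 0 of 43 members were called by limma (background 0.655%), and 0 had a nominal p under 0.05 where 4.11% of genes did. edgeR and DESeq2 also called 0 members. Of the members 21 were higher in large pools and 22 in small pools, with a median log2 fold change of -0.02 against 0.05 over all genes, of which 55.5% were higher in large pools. NDUFA4 had the smallest p, with 34.3, 110, 123, 68.4, 59.4 and 89.5 CPM in small pools against 23.2 to 97.2 CPM in large pools (log2 fold change -0.61, SE 0.33, 95% interval -1.28 to 0.07, limma p = 0.0789, adjusted p = 0.997, exact permutation p = 0.169). NDUFB5 of the membrane arm had 9.0 to 23.9 CPM in small and 2.59 to 16.4 CPM in large pools (-0.92, SE 0.52, limma p = 0.0859, adjusted p = 0.997, exact permutation p = 0.0433). NDUFS4, a matrix-arm subunit near the NADH site, had 53.7 to 117 CPM and 39.6 to 80.2 CPM (-0.47, SE 0.26, limma p = 0.0861, adjusted p = 0.997, exact permutation p = 0.0909). In each of the 3 genes the ranges overlapped.

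**Figure D3:**
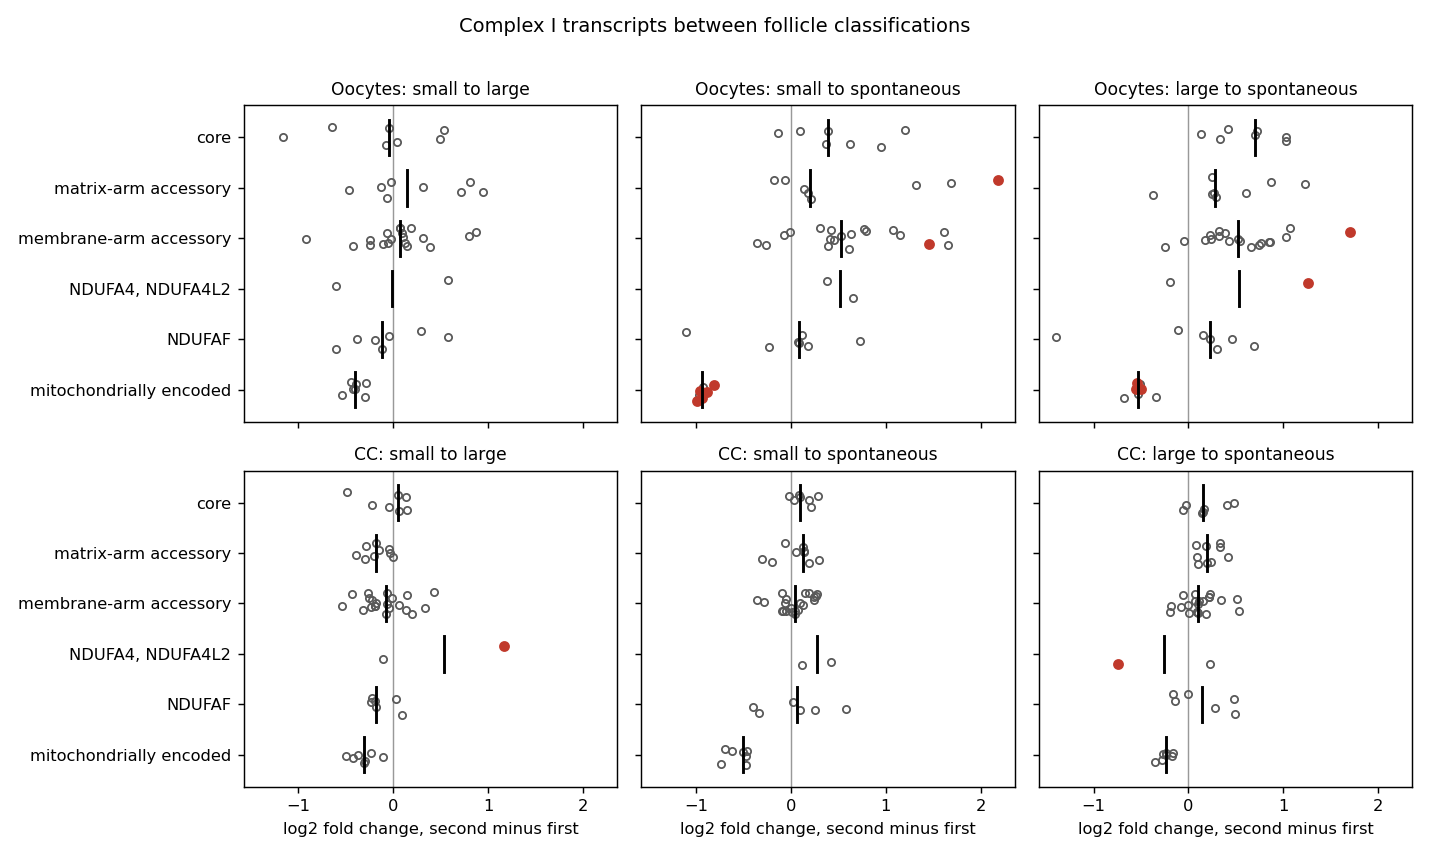
Log2 fold changes, as the second classification minus the first, of each retained NDUF gene by role and of the 7 mitochondrially encoded complex I genes, in 3 oocyte and 3 CC comparisons, with filled points for called genes, bars for medians and NDUFAB1 shown with the membrane arm. In oocytes NDUF genes lie mostly right of 0 toward spontaneous pools (medians over all retained NDUF genes 0.39 and 0.42), while 7 of 7 mitochondrially encoded genes lie left of 0.

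The complex I genes of the mitochondrial genome were lower in spontaneous oocyte pools, and the share of reads on all mitochondrially encoded genes moved alike, at 1.27 to 5.0% in small, 1.13 to 2.68% in large and 0.846 to 1.18% in spontaneous pools. From small to spontaneous pools 7 of 7 were lower, with log2 fold changes of -0.98 to -0.81 (median -0.94), and ND5, ND1, ND4, ND6 and ND2 were called, where 0.248% of genes were called in this direction. From large to spontaneous pools 7 of 7 were lower (-0.68 to -0.34, median -0.53), and ND1, ND5 and ND4 were called, where 0.546% were. Median-of-ratios scaling, edgeR and DESeq2 called 6, 7 and 5 of the 7 against small pools and 2, 1 and 1 against large pools. From small to large pools 7 of 7 were lower in large (median -0.40) and 0 were called by limma, edgeR or DESeq2, with ND5 alone under a nominal p of 0.05. ND1, which lies where the arms meet, had 2543, 2932, 7228, 3190, 2876 and 2523 CPM in small pools. It had 2256, 2937, 2493, 2187, 2192 and 4460 CPM in large pools and 1696, 2129, 1675 and 2034 CPM in spontaneous pools. ND1 was lower in every spontaneous pool than in every small pool, as were 0.427% of retained genes. It was also lower there than in every large pool, as were 0.496%, with 2129 CPM or less against 2187 CPM or more. Its log2 fold change was -0.81 (SE 0.19, limma p = 0.00017, adjusted p = 0.427, exact permutation p = 0.0381) against small and -0.51 (SE 0.15, limma p = 0.00189, adjusted p = 0.909, exact permutation p = 0.0571) against large pools.

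ND5, a proton-pumping subunit at the far end of the membrane arm, measured 1434 to 5595 CPM in small (median 2338), 1461 to 3003 CPM in large (median 1672) and 839 to 1818 CPM in spontaneous pools (median 1312). The spontaneous range overlapped with both. ND4, a further pump subunit, measured 1077 to 5674, 974 to 2923 and 734 to 1267 CPM in the same order. ND4L measured 120 to 589, 85.1 to 333 and 78.8 to 103 CPM, so it was also lower in every spontaneous pool than in every small pool, as were 0.427% of retained genes. ND3 (-0.93) and ND4L (-0.97) passed limma's threshold with all small pools and missed it without small replicate 3. ND2 (-0.88, SE 0.28, limma p = 0.0037, exact permutation p = 0.124) and ND6 (-0.94, SE 0.28, limma p = 0.00201, exact permutation p = 0.0571) each lost the call when any of 5 single pools was left out. The calls of ND1, ND4 and ND5 held without each pool in turn. Against large pools the call of ND1 held in the same way, while those of ND5 (-0.40) and ND4 (-0.35) were lost without large replicate 6.

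Nuclear and mitochondrially encoded subunits were also set against each other within a pool. The 37 NDUF subunits summed to 910 to 1684 CPM in small, 916 to 1502 CPM in large and 1285 to 2287 CPM in spontaneous oocyte pools, with spontaneous replicate 2 lying among the others. The mitochondrially encoded subunits alone summed to 5952 to 22144 CPM in small, 5542 to 12471 CPM in large and 3939 to 5795 CPM in spontaneous pools, so that this sum by itself put every spontaneous pool below every small pool. Per 100 CPM of mitochondrially encoded subunits there were 14.6, 21.2, 7.60, 13.9, 13.8 and 15.3 CPM of NDUF subunits in small pools and 25.3, 19.8, 15.9, 20.0, 22.3 and 9.40 CPM in large pools. The same measure was 38.4, 24.2, 58.1 and 29.9 CPM in spontaneous pools. Every spontaneous pool lay above every small pool, and large replicate 1 alone exceeded the lowest spontaneous pool. In CC the ratio ran from 1.35 to 4.85 in small, 1.79 to 6.06 in large and 2.66 to 5.52 in spontaneous pools, and the classifications overlapped. The lowest ratios in oocytes, 7.60 and 9.40, were those of small replicate 3 and large replicate 6, which had the highest CC marker sums. These sums were 895 to 4515 CPM in small, 803 to 4098 CPM in large and 1001 to 3150 CPM in spontaneous pools, and their part in the ratio was not tested. The ratio was formed after the values were known and was given no test.

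**Figure D4:**
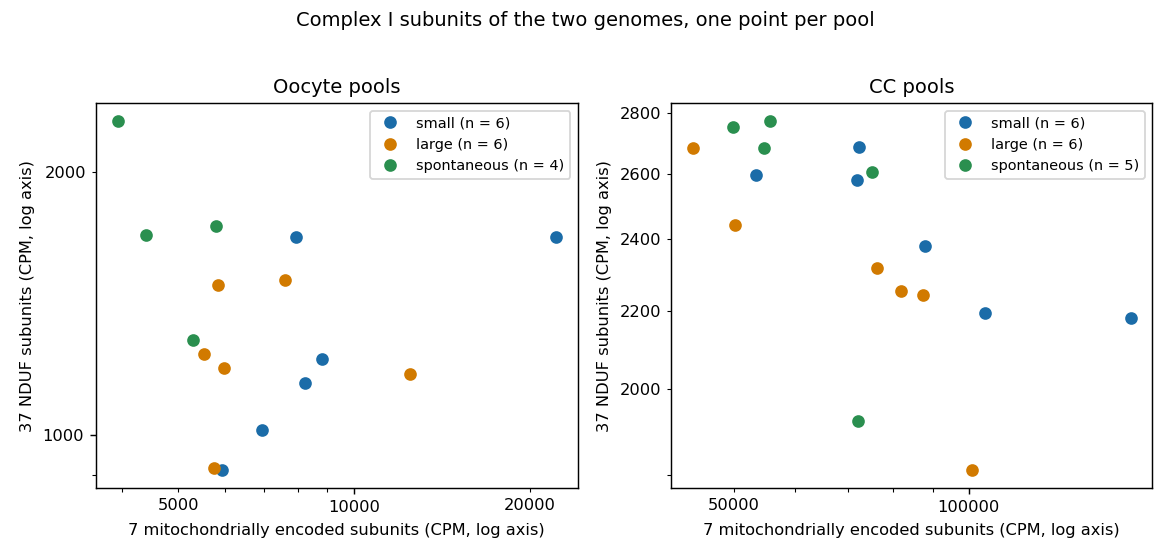
Summed CPM of 37 NDUF subunits (vertical, log axis) against summed CPM of the 7 mitochondrially encoded complex I subunits (horizontal, log axis), one point per pool, for oocytes (left) and CC (right) by classification. Spontaneous oocyte pools hold 3939 to 5795 CPM of mitochondrially encoded subunits, against 5952 to 22144 CPM in small and 5542 to 12471 CPM in large pools, spontaneous replicate 2 (1285 CPM of NDUF subunits) lies at the height of the other classifications, and CC classifications overlap.

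In CC NDUFA4L2 was the only member called by limma as fitted here, and other members passed the threshold under some alternatives. From small to large pools it was the 1 called member of 45 (background: 0.69% called in this direction, 0.813% in all). NDUFA4L2 (ENSBTAG00000031503), whose product lowers complex I activity in cells short of oxygen, measured 196, 126, 206, 64.4, 150 and 284 CPM in small pools and 323, 370, 272, 334, 337 and 499 CPM in large pools. Only small replicate 6 exceeded the lowest large pool. The mean was 171 ± 75.5 CPM (SD, n = 6) in small and 356 ± 77.1 CPM (SD, n = 6) in large pools, a log2 fold change of 1.17 (SE 0.27, 95% interval 0.60 to 1.73, limma p = 0.000338, adjusted p = 0.999), and the exact permutation p was 0.00433, where 0.00216 is the smallest possible. The call held in every alternative run and without each pool in turn. Its paralogue NDUFA4 had 187 to 298 CPM in small and 142 to 321 CPM in large pools, a log2 fold change of -0.11.

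From large to spontaneous CC pools NDUFA4L2 was again the 1 called member, now lower in spontaneous pools (background: 0.206% called in this direction, 1.66% in all). Spontaneous pools held 300, 154, 216, 143 and 277 CPM, and 2 of the 5 exceeded the lowest large pool. The log2 fold change was -0.74 (SE 0.21, 95% interval -1.18 to -0.30, limma p = 0.00238, adjusted p = 0.527, exact permutation p = 0.00866). The call was lost without spontaneous replicate 4 and with the 3 classifications in one fit. Spontaneous and small pools overlapped, with 218 ± 70.5 (SD, n = 5) against 171 ± 75.5 CPM (SD, n = 6), a log2 fold change of 0.43 (SE 0.31, 95% interval -0.22 to 1.07, limma p = 0.183, adjusted p = 0.748, exact permutation p = 0.294). Large CC pools were thus the highest of the 3, and they enter both called comparisons.

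**Figure D5:**
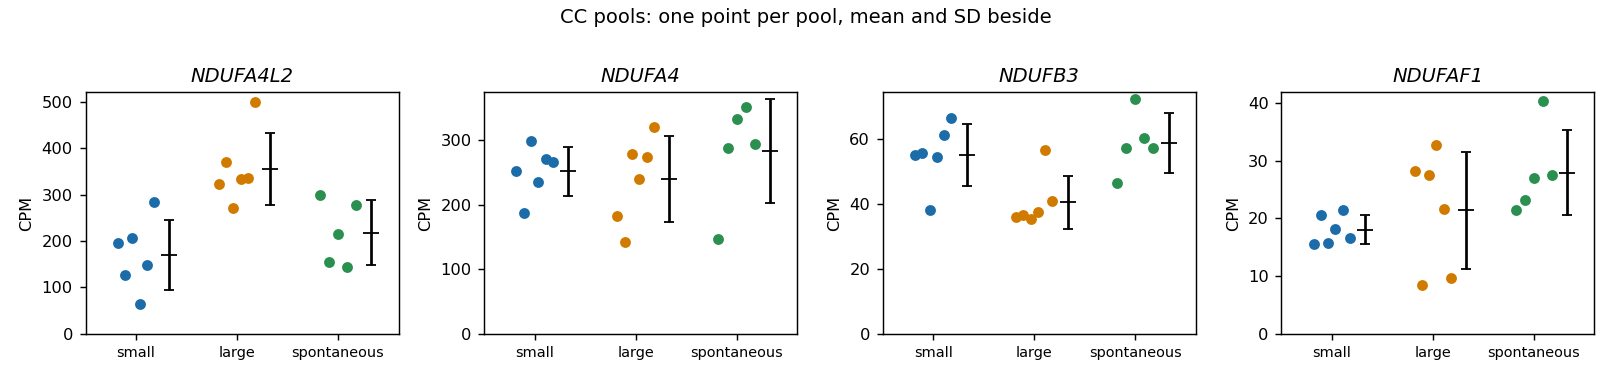
CPM of NDUFA4L2, NDUFA4, NDUFB3 and NDUFAF1 in each CC pool by classification (small n = 6, large n = 6, spontaneous n = 5), with mean and SD beside the points. NDUFA4L2 is highest in large pools (272 to 499 CPM), and every spontaneous pool of NDUFAF1 (21.5 CPM or more) lies above every small pool (21.4 CPM or less).

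Of 45 members 32 were lower in large than in small CC pools and 13 were higher, with a median log2 fold change of -0.11 against 0.05 over all 9712 retained genes, of which 56% were higher in large pools. Matrix-arm accessory subunits were lower for 9 of 9 (-0.39 to 0.00), and membrane-arm accessory subunits for 14 of 20. Under the other scalings the members lower in large pools numbered 34 to 37 and the matrix-arm count was again 9 of 9. Limma called no member but NDUFA4L2, and 2 lower members, NDUFA2 and NDUFB3, had a nominal p under 0.05. NDUFA2, a matrix-arm subunit, had 60.4, 56.0, 73.8, 61.9, 65.2 and 75.7 CPM in small pools and 54.2, 47.0, 48.6, 47.0, 56.8 and 44.0 CPM in large pools. Only large replicate 5 exceeded the lowest small pool (log2 fold change -0.39, SE 0.18, 95% interval -0.76 to -0.02, limma p = 0.0404, adjusted p = 0.999, exact permutation p = 0.00433). NDUFB3, a membrane-arm subunit, had 55.2, 55.7, 38.2, 54.4, 61.2 and 66.5 CPM in small and 36.2, 36.7, 35.4, 37.7, 56.8 and 40.9 CPM in large pools (-0.43, SE 0.20, limma p = 0.0464, adjusted p = 0.999, exact permutation p = 0.0325). The ranges of NDUFB3 overlapped through small replicate 3 and large replicate 5. Both genes passed the threshold once the mitochondrially encoded genes were left out of the CPM, and NDUFB3 also did so in DESeq2.

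From large to spontaneous CC pools 34 of 45 members were higher, with a median of 0.14 against 0.11 over all genes, of which 65.6% were higher. Matrix-arm accessory subunits were higher for 9 of 9 (0.08 to 0.42), and for 7 of 9 with median-of-ratios scaling, edgeR or DESeq2. Under these 3 settings 25 or 26 members were higher in place of 34. NDUFB3 had 46.4, 57.3, 72.4, 60.3 and 57.3 CPM in spontaneous pools, and large replicate 5 alone lay within that range (log2 fold change 0.53, SE 0.18, 95% interval 0.14 to 0.92, limma p = 0.0107, adjusted p = 0.57, exact permutation p = 0.00866). It was called without large replicate 5 (0.63) or spontaneous replicate 1 (0.61). NDUFB5 had 41.6 to 79.1 CPM in spontaneous and 24.6 to 56.0 CPM in large pools, which overlapped (0.51, SE 0.22, limma p = 0.0365, adjusted p = 0.68, exact permutation p = 0.0433).

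From small to spontaneous CC pools limma called 0 of 45 members (background 2.38%), as did edgeR and DESeq2, and 1 member had a nominal p under 0.05 (background 8.55%). Of the members 30 were higher, with a median of 0.08 against 0.16 over all genes, of which 71.9% were higher. With each of the other scalings 13 of 45 were higher, and the median was -0.090 with CPM recomputed without mitochondrially encoded genes, so the direction rests on the scaling. NDUFAF1 had the smallest p, with 15.6, 20.6, 15.7, 18.2, 21.4 and 16.6 CPM in small and 21.5, 23.2, 27.0, 40.3 and 27.6 CPM in spontaneous pools. Every spontaneous pool lay above every small pool, as in 1.1% of retained genes, with a gap between 21.4 and 21.5 CPM. The log2 fold change was 0.58 (SE 0.22, 95% interval 0.11 to 1.05, limma p = 0.0184, adjusted p = 0.474, exact permutation p = 0.00216). NDUFA2 followed with -0.30 (SE 0.19, limma p = 0.131, adjusted p = 0.707, exact permutation p = 0.0909), and its pools overlapped. The difference in NDUFAF1 between cell types was not tested, since the tables were scaled separately.

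Core subunits showed no called difference in CC. By limma 0 had a nominal p under 0.05, and edgeR and DESeq2 called 0. In large pools 4 of 7 were above small (-0.49 to 0.15), and in spontaneous pools 6 of 7 were above small (-0.02 to 0.29, but 3 of 7 with each of the other scalings) and 5 of 7 above large (-0.06 to 0.48). NDUFAF genes were higher for 2, 4 and 3 of 6 in the same order. Mitochondrially encoded subunits were lower for 7 of 7 in each CC comparison, with medians of -0.31, -0.51 and -0.24, and 0 were called by limma, while edgeR called 1 and DESeq2 3 from small to spontaneous pools. In that comparison ND6 (-0.69, limma p = 0.0164, exact permutation p = 0.0411) and ND2 (-0.73, limma p = 0.0247, exact permutation p = 0.0498) had a nominal p under 0.05. CC small replicate 3 held 4173 CPM of ND6 (other small pools 1139 to 2390) and 13936 CPM of ND2 (3201 to 5586). That pool had the fewest reads on genes of all pools (1911600) and the highest share on mitochondrially encoded genes (44.0%). Its part in these differences was not tested.

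Assembly factors outside the NDUFAF series, such as ACAD9, ECSIT, TIMMDC1 and NUBPL, were called in 0 of the 6 comparisons by limma, edgeR or DESeq2. Of 15 on the list 13 were found, and 9 were retained in oocytes and 10 in CC. In oocytes their median log2 fold change was -0.04 for large over small, 0.04 for spontaneous over small and -0.07 for spontaneous over large pools. The last of these was -0.38 with edgeR and -0.37 with DESeq2. In CC the same medians were 0.05, 0.36 and 0.44, and the second was 0.20 to 0.25 with the other scalings. AIFM1, which helps to import subunits, was the one under a nominal p of 0.05 in oocytes. It was 58.3 to 94.1 CPM in large pools, 16.8 to 78.3 CPM in small pools and 15.3 to 66.0 CPM in spontaneous pools, so the ranges overlapped. Its log2 fold change was 0.73 for large over small (limma p = 0.0258, exact permutation p = 0.0606) and -0.80 for spontaneous over large pools (limma p = 0.0273, exact permutation p = 0.0381; background 4.87%). NUBPL, which inserts iron-sulphur clusters into complex I, was the one in CC, with 0.452 to 5.66 CPM in large and 1.25 to 12.9 CPM in spontaneous pools (1.25, limma p = 0.0324, exact permutation p = 0.0368; background 7.07%).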

How the data were processed

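The members and the gene lists were chosen with earlier results of these data known. RNA of 16 oocyte and 17 CC pools was amplified by the authors, sequenced single-end, trimmed with fqtrim, aligned to UMD3.1 with Hisat2 and counted on genes with FeatureCounts. Software versions and the treatment of reads that align to several places are not given in the sources used here, so NDUF genes with near-identical copies are uncertain. The deposited values are CPM in 2 tables, each scaled by the library's reads on genes. Pools were grouped by the sample labels, and columns were matched by name, with 0 left unmatched. Symbols were missing for 8 members in the CC table and were filled in by identifier.

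Whole reads were recovered from CPM for 100% of values (within 0.02 reads). CPM was tested as log2(CPM + 1) with limma 3.58.1 (trend, two-sided, 2 classifications per fit), beside an exact two-sided permutation test of mean CPM. The packages the paper used, edgeR (4.0.16, here its quasi-likelihood test) and DESeq2 (1.42.0), were each run alone on recovered reads as alternatives. The paper called a gene only where both gave a nominal p of 0.01 or less, and its text does not name the edgeR test. Counts given here for either package therefore need not match the paper's calls. Members with full statistics were those at a nominal p of 0.01 or less and the 3 with the smallest p in each comparison, and, across cell types, the 3 highest and lowest ratios. The fits were run on simulated data with 4-fold changes in well-expressed genes and the same reduced spread for every gene. That run checks the code and says nothing about power in these data. Other alternatives were a pseudocount of 0.1, no filter, other scalings, the 3 classifications in one fit, a replicate block, thinned reads and each pool left out in turn. Within a cell type, same-numbered pools of different classifications had correlations of -0.19 to 0.22. Between small and large CC pools 3 of 6 correlated best with their own number. Oocyte pools were not compared with CC pools in this way. The closest oocyte libraries differed by more than sampling noise. Labels do not tie pools to rounds of synchronisation or to single cows, so p-values measure only the spread between pools, which may be partly technical. Values of 1 member are not reported here on their own. Sequences and coordinates were not used here. R 4.3.3, Python 3.11.15, pandas 2.3.3 and matplotlib 3.10.9 were used.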

Additional observations from a re-analysis of the deposited data

Results flagged for a closer look

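In groups of 4 to 6 pools, 75 groups of values were examined for a single pool standing apart by Dixon's ratio, and 15 held one. The groups covered genes chosen for full statistics by their p, in that cell type only, and the pool sums and ratio given above. Single mitochondrially encoded genes were therefore not examined in CC. Chance gives about 1 in 20 for separate, normally distributed values. Most flags came from oocyte small replicate 3 and large replicate 6, in mitochondrially encoded genes and their sum, and are not separate events. Oocyte small replicate 3 stood apart in 6 mitochondrially encoded genes and their sum, with 7228 CPM for ND1 (the others at most 3190), 1713 for ND2, 952 for ND3, 5674 for ND4, 589 for ND4L and 5595 for ND5, and 22144 CPM summed over the 7 complex I genes (the others 5952 to 8825). Oocyte large replicate 6 stood apart in 5 of them and the sum, with 4460 CPM for ND1, 1075 for ND2, 414 for ND3, 2923 for ND4, 333 for ND4L and 12471 CPM summed (the others 5542 to 7602). These pools also held the highest sums of cumulus and granulosa markers among oocyte pools, 4515 and 4098 CPM, and the part of CC transcripts in these values was not tested. In CC large replicate 5 NDUFB3 stood at 56.8 CPM, above 35.4 to 40.9 in the other 5 pools. In CC spontaneous replicate 1 the summed CPM of all NDUF genes was 2439, below 3155 to 3434 in the other 4. Of 174 pairs of the same gene and contrast in oocytes and CC, 0 separated fully in opposite directions.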

How the results depend on the processing

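Members called from small to spontaneous oocyte pools numbered 2, but 0 without the filter or with edgeR, and 1 with all classifications in one fit, with the replicate block or with DESeq2. From small to large oocyte pools 1 was called without the filter in place of 0. From small to large CC pools 3 were called with CPM recomputed without mitochondrially encoded genes and 2 with DESeq2 in place of 1. From large to spontaneous CC pools 2 were called without the filter and 0 with all classifications in one fit in place of 1. The median in CC from small to spontaneous pools moved from 0.08 to -0.090 without mitochondrially encoded genes and to -0.089 with DESeq2, while that of all genes moved from 0.16 to -0.0045 and -0.03. With CPM recomputed over genes that both tables list, 1 member was higher in every oocyte pool, in place of 0. The causes were not tested.

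With each pool left out in turn, members called were 0 to 0 (small to large), 0 to 3 (small to spontaneous; 0 without spontaneous replicate 3) and 2 to 5 (large to spontaneous; 5 without spontaneous replicate 2) in oocytes. In CC they were 1 to 1, 0 to 0 and 0 to 2 (0 without spontaneous replicate 4; 2 without large replicate 5 or spontaneous replicate 1). The medians were -0.08 to 0.15, 0.28 to 0.55 and 0.27 to 0.55 in oocytes and -0.18 to -0.03, 0.02 to 0.18 and 0.09 to 0.21 in CC. Of single-gene results 465 kept direction and side of the threshold, 60 lost a call, 15 gained one and 0 changed direction. The replicate block rests on shared numbers only, since at most 1 pair of same-numbered pools per comparison had a correlation over 0.1. Apart from small to spontaneous oocyte pools it changed no count of called members. A read floor of 0.520 to 1.57 CPM in CC limits NDUFAF2 there. Over all genes the calls went from 66 to 114, 78 to 122 and 95 to 181 with DESeq2 in the oocyte comparisons (in the order above), and from 78 to 41 with the block. In CC they went from 79 to 137 with all classifications in one fit (small to large), and from 231 to 120 without mitochondrially encoded genes, 126 with median-of-ratios scaling and 128 with edgeR (small to spontaneous).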

Other observations

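The median deviation of the NDUF genes from their mean over pools, on the log2 scale, ranged from -0.64 to 0.50 in small, -0.56 to 0.27 in large and -0.06 to 0.73 in spontaneous oocyte pools. It was highest in spontaneous replicate 3 (0.73) and lowest in small replicate 1 (-0.64). In CC it ranged from -0.31 in large replicate 2 to 0.24 in spontaneous replicate 4. Summed over all NDUF genes, oocyte pools held 1035 to 2532 CPM and CC pools 2385 to 3434 CPM. After centring on classification means, the pair of members with the highest correlation over CC pools was NDUFA11 and NDUFB4 (r = 0.857, n = 17).

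Spontaneous pools of NDUFAF1 lay below every large pool in oocytes (0.810 to 5.31 against 6.28 to 10.1 CPM, as in 0.496% of retained genes) and above every small pool in CC (21.5 to 40.3 against 15.6 to 21.4 CPM, as in 1.1% of retained genes). The gap in CC was less than the worth of 1 read. In oocytes its small pools (1.78 to 21.9 CPM) overlapped with the spontaneous ones. In CC its large pools (8.54 to 32.8 CPM) overlapped with both other classifications.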
